A study of Mus musculus with 12 samples.

Results

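Transcript levels of 10 ligand genes of the bone morphogenetic protein (BMP) and transforming growth factor beta (TGF-beta) family were followed in mouse germinal vesicle oocytes that lacked both, one or neither of the Polycomb proteins Ring1 and Rnf2. The genes are Gdf9, Bmp15, Bmp2, Bmp4, Bmp5, Bmp6, Bmp7, Tgfb2, Inhba and Inhbb, and they were found by symbol among the 21746 genes that had a probe set of their own on the array. All 10 were measured, each by 1 probe set. The list was chosen by its measured values in part, since Bmp2 was selected on its large rise in the double mutant against control. All members' values in that comparison are therefore given as a description with no p-value, and counts of calls there are not read as a result. The Bmp2 values in every comparison with the double mutant are treated in the same way.

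The double mutant was Ring1-/-Rnf2F/FZp3-cre, the Ring1 mutant Ring1-/-Rnf2F/F, the Rnf2 mutant Ring1+/+Rnf2F/FZp3-cre and the control Ring1+/+Rnf2F/F. All 4 genotypes thus carried the floxed Rnf2 gene and a mixed 129/Sv and C57BL/6J background, the Ring1 null alleles of the double and Ring1 mutants were not restricted to oocytes, and the Zp3 promoter drives Cre in growing oocytes, so Rnf2 deletion is limited to oocytes from that stage on. Females were 5 to 10 weeks old, and fully grown oocytes were collected 46 h after an injection of 5 U PMSG, a gonadotropin that stimulates follicle growth, into medium with 2.5 μM milrinone, which holds oocytes in meiotic arrest. Each genotype had 3 arrays, each hybridised with amplified cDNA of 50 oocytes pooled from several females. The labels call the 3 pools biological replicates without saying if 2 pools can hold oocytes of the same female, and each p-value refers to the spread among pools.

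Ligands of this family are secreted as dimers that assemble type I and type II receptor kinases on the target cell. BMPs then act mainly through Smad1, Smad5 and Smad9, and activins and TGF-betas mainly through Smad2 and Smad3, with Smad4 as the shared partner. In the ovary, Gdf9 and Bmp15 are made by the oocyte and direct the growth of the surrounding granulosa cells, whereas activins and inhibins are mostly products of granulosa cells. Ring1 and Rnf2 are alternative catalytic subunits of Polycomb repressive complex 1, a histone ubiquitin ligase that keeps many developmental genes silent, often at promoters rich in CG dinucleotides. The comparison of the 4 genotypes asks how oocyte transcripts depend on each of these subunits and on both.

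Promoter sequences are shown for 4 members whose levels the results turn on: Bmp5 and Bmp6, which lay on opposite sides of control in the double mutant, Tgfb2, which lay farthest below control, and the oocyte factor Bmp15. Each window is taken from RefSeq on GRCm38.p6, runs 5′ to 3′ along the gene's strand from 250 bases before to 50 bases after the gene's start, and has its CG dinucleotides in capitals. The windows are chr9:75775115-75775414 (plus strand) for Bmp5, chr13:38345466-38345765 (plus strand) for Bmp6, chr1:186705940-186706239 (minus strand) for Tgfb2 and chrX:6320675-6320974 (minus strand) for Bmp15.
Bmp5: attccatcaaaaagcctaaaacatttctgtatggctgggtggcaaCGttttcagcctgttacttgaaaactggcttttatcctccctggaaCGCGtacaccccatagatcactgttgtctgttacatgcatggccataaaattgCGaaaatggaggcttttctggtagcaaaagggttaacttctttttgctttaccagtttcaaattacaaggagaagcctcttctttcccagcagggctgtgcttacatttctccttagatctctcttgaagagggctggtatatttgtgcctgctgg
Bmp6: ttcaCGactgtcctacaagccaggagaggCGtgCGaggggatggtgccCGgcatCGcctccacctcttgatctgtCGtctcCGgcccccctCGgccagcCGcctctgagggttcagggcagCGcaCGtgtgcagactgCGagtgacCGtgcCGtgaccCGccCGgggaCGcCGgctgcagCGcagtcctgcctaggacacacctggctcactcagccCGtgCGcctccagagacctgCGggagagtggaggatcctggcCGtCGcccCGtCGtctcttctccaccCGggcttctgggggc
Tgfb2: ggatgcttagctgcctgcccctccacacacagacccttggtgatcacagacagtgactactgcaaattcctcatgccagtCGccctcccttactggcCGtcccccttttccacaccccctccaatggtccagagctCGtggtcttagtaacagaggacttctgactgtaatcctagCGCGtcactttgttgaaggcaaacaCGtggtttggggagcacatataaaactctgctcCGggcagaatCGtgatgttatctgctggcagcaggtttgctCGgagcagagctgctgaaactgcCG
Bmp15: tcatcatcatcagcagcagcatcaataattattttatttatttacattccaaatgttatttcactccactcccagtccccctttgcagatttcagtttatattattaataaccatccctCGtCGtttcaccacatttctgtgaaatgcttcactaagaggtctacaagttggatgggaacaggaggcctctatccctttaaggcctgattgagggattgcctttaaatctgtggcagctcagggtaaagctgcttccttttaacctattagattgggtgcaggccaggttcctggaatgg

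RefSeq windows were matched for 7 of the 10 members, and their CG content ran from sparse to dense. Bmp6 held 27 CG dinucleotides, Inhbb 23, Bmp4 12, Tgfb2 10, Inhba 7, Bmp5 4 and Bmp15 2. Over all 32851 promoter windows of this length the median was 7, and 15.5% held at least as many as Bmp6 while 85.9% held at least as many as Bmp15. Among genes with a window, the CG counts of those above control in the double mutant (12 in Bmp4 and 4 in Bmp5) and below it (10 in Tgfb2 and 27 in Bmp6) interleaved. Bmp2 and Bmp7, which were also above control, had no matched window, so these counts do not stand for all genes above control. Short motifs were searched on both strands. The E-box CACGTG, which is one form of CANNTG and contains a CG, occurred once each in Bmp4, Bmp6 and Tgfb2 and in 7.15% of all windows. The homeodomain motif TAATTG occurred 3 times in Inhba and in 8.0% of all windows. TAATTA occurred once in Bmp15, with 5.29% over all windows, and the TATA box TATAAA, on either strand, once each in Bmp15, Inhba and Tgfb2, with 13.6%. These matches describe letters and not bound sites.

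Rnf2 itself read 5.90, 5.68 and 6.01 log2 in double mutants, 8.43, 8.53 and 8.43 in Ring1 mutants, 5.60, 5.93 and 6.04 in Rnf2 mutants and 8.33, 8.44 and 8.23 in controls, so it was low on every array with Cre. Ring1 read 3.50 to 3.99 log2 on all arrays, near the floor, so this signal cannot check which animals lacked Ring1. Where the probes of either gene lie within it is not stated by the labels. The floor of the array, 3.83 log2, is the 95th percentile of 1033 olfactory receptor genes, taken as mostly silent in oocytes, and 12786 genes had a mean above it. All 12 oocyte markers lay above the floor, with list means of 10.33 to 10.35 log2 in double mutants and 10.47 to 10.54 in the other genotypes. All values below are log2 intensities as deposited, and since probe sets differ in response, they are compared between genotypes of 1 gene and not between genes. In a pooled sample, fewer cells of a type and less RNA per cell cannot be told apart.

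By the rule used for all genes, an adjusted p below 0.05 by limma, 4 of the 10 ligand genes counted as higher in the double mutant than in control and 2 as lower, where 31.9% of all genes were called (14.4% higher and 17.5% lower). The 4 higher ones were Bmp2, Bmp4, Bmp5 and Bmp7, and the 2 lower ones Bmp6 and Tgfb2. For 8 of the 10 genes the double-mutant and control arrays did not overlap, as for 43.0% of all genes. Because the members were chosen with this comparison in view, nothing is read from these counts. Deviations of same-numbered double-mutant and control arrays correlated at 0.10 to 0.26. With the replicate number as a block in a fit of these 2 genotypes, chosen after seeing the data, 7 of the 10 were called. Inhba (lower) was the addition, and this count too is not read as a result. Against control, limma called 0 of the 10 in the Ring1 mutant (0 also at an unadjusted p below 0.05) and 0 of the 10 in the Rnf2 mutant (2 at an unadjusted p below 0.05, Inhba and Inhbb). Among all genes 0.773% were called in the Ring1 mutant (0.308% higher and 0.464% lower) and 0.138% in the Rnf2 mutant (0.0966% higher and 0.0414% lower). The arrays did not overlap with control for 0 of the 10 in the Ring1 mutant and 1 of the 10, Inhbb, in the Rnf2 mutant, beside 16.6% and 12.2% of all genes.

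**Figure D1:**
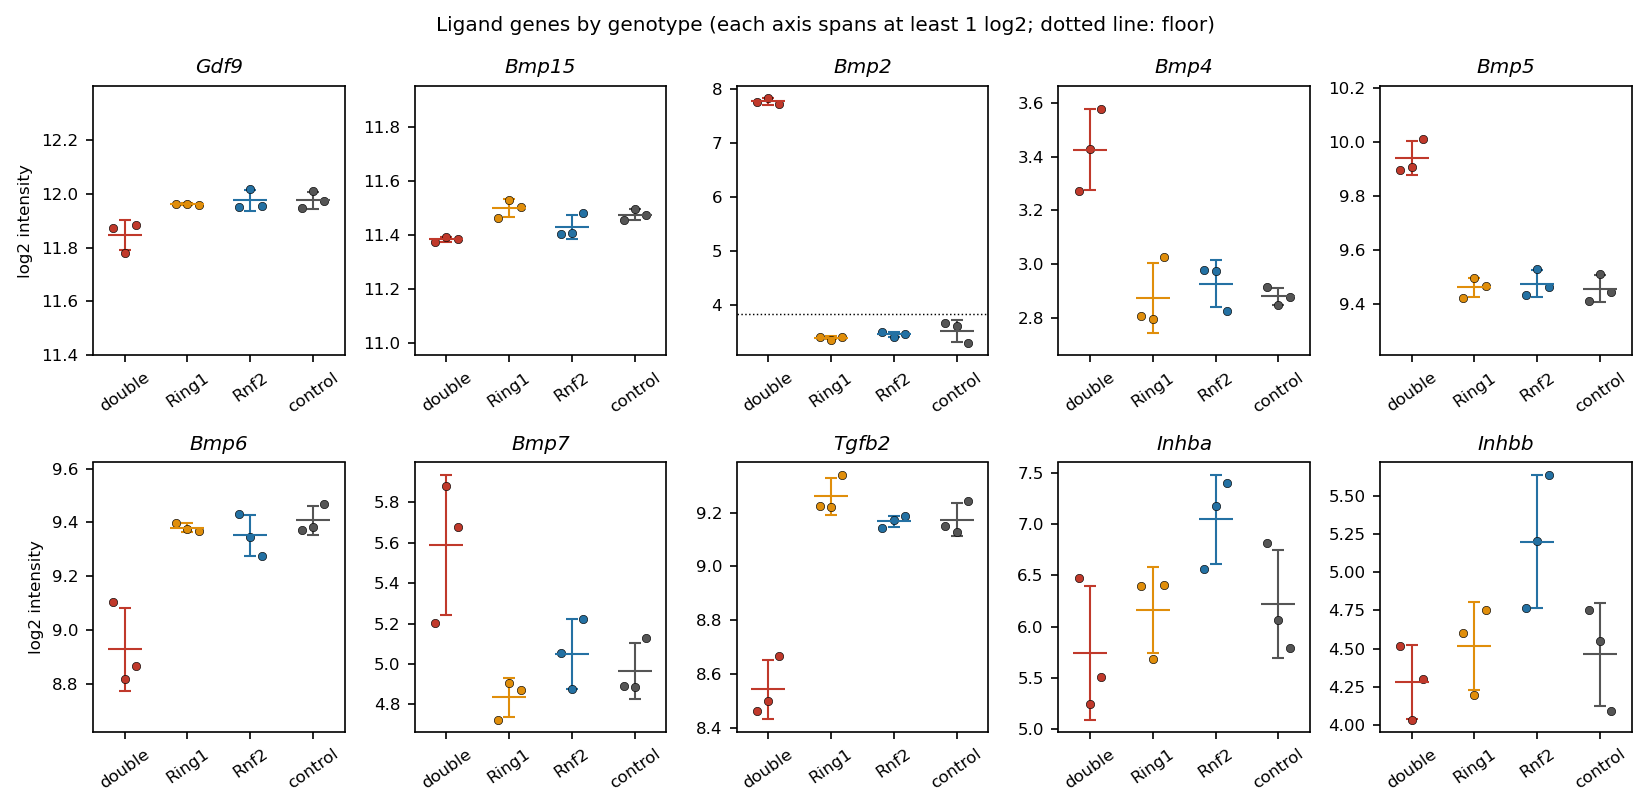
Each panel shows 1 ligand gene, with log2 intensity on the y axis and the genotypes on the x axis (double mutant, Ring1 mutant, Rnf2 mutant, control). Points are the 3 arrays of each genotype, horizontal lines their mean and bars the SD, the dotted line is the floor, and the y ranges differ between panels. The 3 double-mutant arrays of Bmp2 sit at 7.72 to 7.84 while the other arrays sit between 3.29 and 3.67, and Inhba and Inhbb scatter within every genotype.

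The oocyte factors differed from control by no more than -0.13 to 0.02 log2 in any mutant. Gdf9, which is required for follicles to grow past the primary stage, read 11.87, 11.78 and 11.88 log2 in double mutants, 11.96, 11.96 and 11.96 in Ring1 mutants, 11.95, 12.02 and 11.96 in Rnf2 mutants and 11.95, 12.01 and 11.97 in controls. All 3 double-mutant arrays lay below all 9 others, by a margin that is small on this scale. The difference of the double mutant from control was -0.13 ± 0.06 log2 (SE, n = 3 arrays per genotype, as for all differences below).

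Bmp15, its X-linked relative that acts together with Gdf9 on cumulus cells, read 11.37, 11.39 and 11.38 log2 in double mutants, 11.46, 11.53 and 11.50 in Ring1 mutants, 11.40, 11.41 and 11.48 in Rnf2 mutants and 11.45, 11.49 and 11.47 in controls. Again the 3 double-mutant arrays were the lowest, and the difference from control was -0.09 ± 0.05 log2. Against the Ring1 mutant, Gdf9 differed by -0.12 (limma, adjusted p = 0.14) and Bmp15 by -0.12 (limma, adjusted p = 0.124). Against the Rnf2 mutant, Gdf9 differed by -0.13 (limma, adjusted p = 0.104) and Bmp15 by -0.05 (limma, adjusted p = 0.575), and neither was called with the values as deposited. Against the Ring1 mutant, both were called lower after centring on array medians (adjusted p = 0.00711 for Gdf9 and 0.0106 for Bmp15) and with a variance trend and robust estimation (adjusted p = 0.00531 for Gdf9 and 0.00413 for Bmp15), all by limma. Against the Rnf2 mutant, Gdf9 was called lower by limma under those settings (adjusted p = 0.0051 and 0.00223) and among genes above the floor only (adjusted p = 0.0415).

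Such small differences depend on how arrays are scaled. The median difference of all genes between double mutant and control was -0.04 log2 as deposited, -0.16 after centring each array on its median and 0.07 after centring on the most abundant 25% of genes. The called genes split into 3129 higher and 3805 lower as deposited (45.1% higher), against 23.3% and 67.1% higher under those centrings. Over the alternatives the Gdf9 difference ran from -0.25 to -0.01 and that of Bmp15 from -0.22 to 0.02, so the direction of Bmp15 turned under the last scaling.

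Bmp2 was below the floor on the 9 arrays of the other genotypes and above it on all 3 double-mutant arrays. This ligand, which is needed for heart and bone formation, read 7.77, 7.84 and 7.72 log2 in double mutants, 3.41, 3.36 and 3.40 in Ring1 mutants, 3.50, 3.42 and 3.46 in Rnf2 mutants and 3.67, 3.62 and 3.29 in controls. Every double-mutant array stood far above every other array, and the other 3 genotypes overlapped or lay close to each other. The fitted difference from control was 4.25 ± 0.09 log2, which rests on control values below the floor and is no measured size. The double mutant is at least 15.4-fold above it when the floor stands in for control. The single mutants differed from control by -0.14 (Ring1 mutant; limma, adjusted p = 0.651) and -0.07 (Rnf2 mutant; limma, adjusted p = 0.947), both with a SE of 0.09.

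The genes whose pattern over the 12 arrays was most like that of Bmp2 were found by the root mean square difference of log2 values after each gene was set relative to its control mean. Among the 5 closest were Rbm46, a germline RNA-binding protein (0.161), Casd1, a sialic acid O-acetyltransferase (0.238), Plod2, a lysyl hydroxylase that modifies collagen (0.255), and the X-linked Xlr (0.265). The control means of these 4 genes lay below the floor, as did that of Bmp2. The arrays are shared by all these genes, so the likeness is a description.

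**Figure D2:**
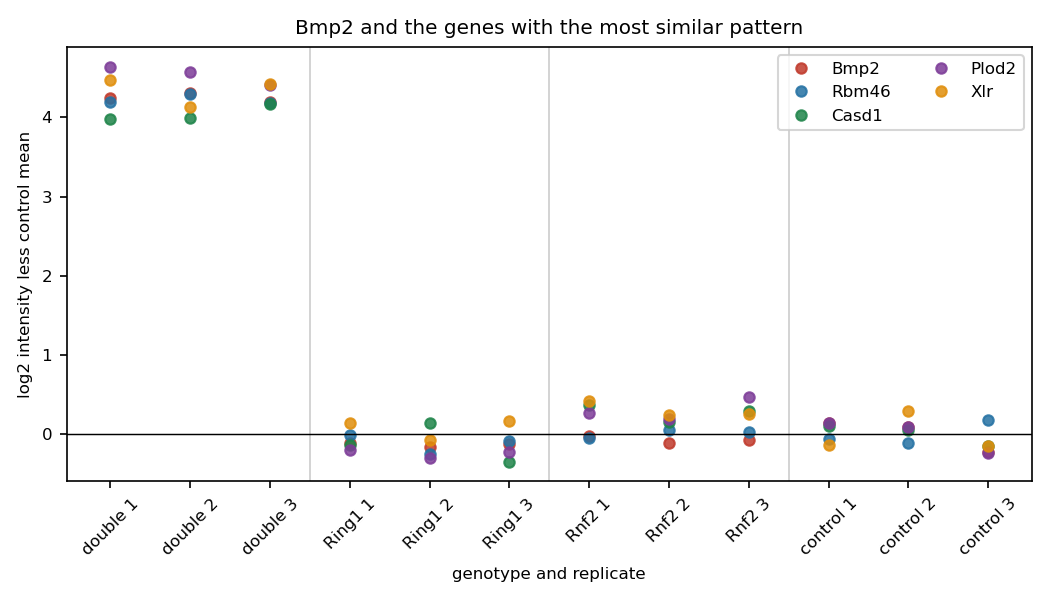
The y axis gives log2 intensity less the gene's control mean, and the x axis the 12 arrays by genotype and replicate (double, Ring1 and Rnf2 stand for the mutants). Points are single arrays of Bmp2 and 4 of the 5 genes most like it. All of these genes are near 4 on the double-mutant arrays and near 0 on the others, and their control means lie below the floor.

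Bmp4, which specifies germ cells and mesoderm in the embryo, was below the floor on all 12 arrays. It read 3.27, 3.43 and 3.58 log2 in double mutants, 2.81, 2.80 and 3.03 in Ring1 mutants, 2.98, 2.98 and 2.83 in Rnf2 mutants and 2.91, 2.85 and 2.88 in controls. The double-mutant arrays did not overlap with any others, and the difference from control was 0.55 ± 0.09 log2. A difference below the floor is compressed, and no fold is given. The double mutant was higher than the Ring1 mutant by 0.55 (limma, adjusted p = 0.000412) and than the Rnf2 mutant by 0.50 (limma, adjusted p = 0.000884). These comparisons share the double-mutant arrays with the comparison that was in view when the genes were chosen, here and for all members below.

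Among ligands with signal in control oocytes, Bmp5 and Bmp7 were higher and Bmp6 and Tgfb2 were lower in the double mutant. Bmp5, known in mouse for its part in cartilage and ear shape, read 9.90, 9.91 and 10.01 log2 in double mutants, 9.42, 9.50 and 9.47 in Ring1 mutants, 9.43, 9.53 and 9.46 in Rnf2 mutants and 9.41, 9.51 and 9.44 in controls. The double-mutant arrays were above all 9 others, and those 9 overlapped. The difference from control was 0.48 ± 0.06 log2, which is 1.40-fold on the linear scale. Bmp5 was also higher in the double mutant than in the Ring1 mutant by 0.48 (limma, adjusted p = 5.85e-05) and than in the Rnf2 mutant by 0.47 (limma, adjusted p = 7.55e-05).

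Bmp6, which is made by mouse oocytes and in liver controls iron balance, read 9.11, 8.82 and 8.87 log2 in double mutants, 9.40, 9.38 and 9.37 in Ring1 mutants, 9.43, 9.35 and 9.28 in Rnf2 mutants and 9.37, 9.38 and 9.47 in controls. All double-mutant arrays were below all others, with replicate 1 the nearest to them. The difference from control was -0.48 ± 0.08 log2, a level 1.39-fold lower. Bmp6 was lower in the double mutant than in the Ring1 mutant by 0.45 ± 0.08 (limma, adjusted p = 0.000715) and than in the Rnf2 mutant by 0.42 ± 0.08 (limma, adjusted p = 0.00119).

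Tgfb2, a TGF-beta isoform needed for heart and craniofacial development, read 8.46, 8.50 and 8.67 log2 in double mutants, 9.22, 9.22 and 9.34 in Ring1 mutants, 9.14, 9.17 and 9.19 in Rnf2 mutants and 9.15, 9.13 and 9.24 in controls. The double-mutant arrays were all below the other 9. The difference from control was -0.63 ± 0.07 log2, a level 1.55-fold lower. Tgfb2 was lower in the double mutant than in the Ring1 mutant by 0.72 ± 0.07 (limma, adjusted p = 6.55e-06) and than in the Rnf2 mutant by 0.62 ± 0.07 (limma, adjusted p = 2.21e-05).

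Bmp7, which is needed for kidney and eye development, read 5.20, 5.88 and 5.68 log2 in double mutants, 4.72, 4.91 and 4.87 in Ring1 mutants, 5.05, 4.88 and 5.22 in Rnf2 mutants and 4.89, 4.89 and 5.13 in controls. Replicate 1 of the double mutant was the lowest of its genotype and overlapped with the Rnf2 mutants, though not with the Ring1 mutants or controls. The difference from control was 0.62 ± 0.15 log2. Bmp7 was higher in the double mutant than in the Ring1 mutant by 0.75 ± 0.15 (limma, adjusted p = 0.0019) and than in the Rnf2 mutant by 0.54 ± 0.15 (limma, adjusted p = 0.0158). The last call was lost under 4 of 14 alternatives, among them leaving out double-mutant replicate 2 or 3 or Rnf2-mutant replicate 2, with adjusted p up to 0.0688.

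**Figure D3:**
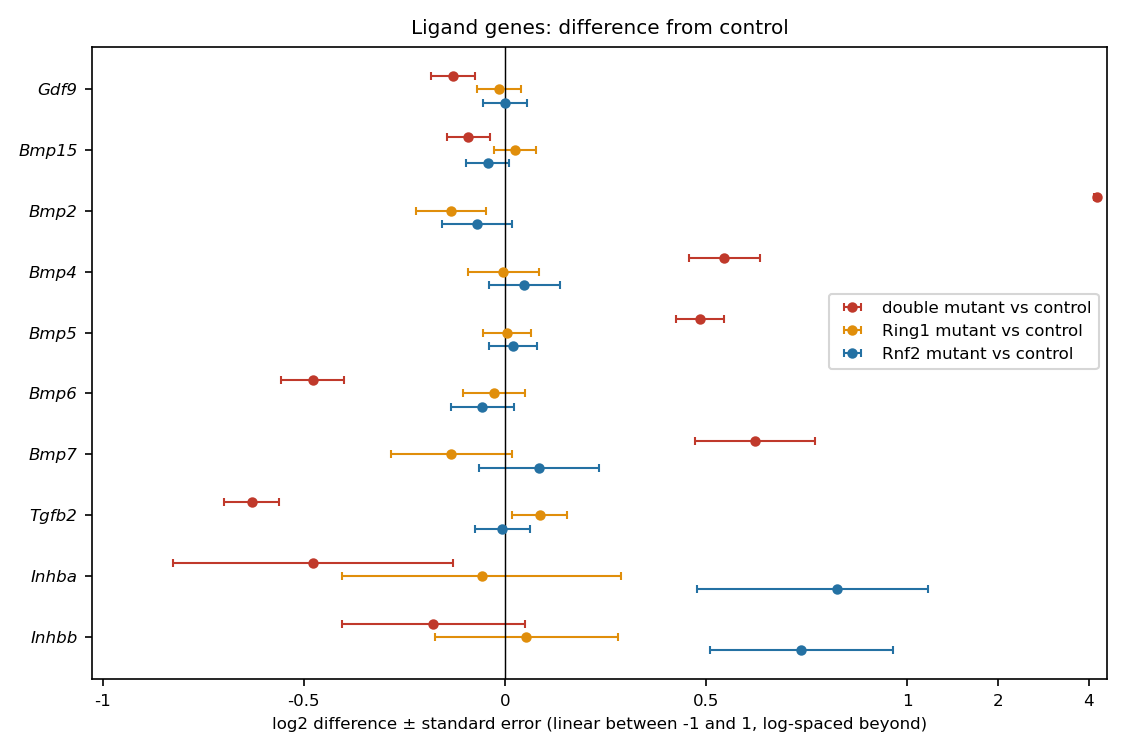
The x axis is the log2 difference from control, linear between -1 and 1 and log-spaced beyond, and the ligand genes run down the y axis. Points are the double mutant, the Ring1 mutant and the Rnf2 mutant against control, and bars are standard errors (3 arrays per genotype). Single-mutant points lie near 0 apart from Inhba (0.83) and Inhbb (0.74) in the Rnf2 mutant, which did not pass the test, while Bmp2 in the double mutant is at 4.25.

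Inhba and Inhbb, which encode the beta subunits of activins and inhibins, had the largest standard errors among the members. Inhba read 6.48, 5.24 and 5.50 log2 in double mutants, 6.40, 5.68 and 6.41 in Ring1 mutants, 6.56, 7.17 and 7.40 in Rnf2 mutants and 6.81, 6.06 and 5.79 in controls. The Rnf2-mutant arrays all lay above those of the double and Ring1 mutants but overlapped with control, and the other genotypes overlapped with each other. Inhba differed from control by -0.48 ± 0.35 in the double mutant, -0.06 in the Ring1 mutant (limma, adjusted p = 0.976) and 0.83 in the Rnf2 mutant (limma, adjusted p = 0.708), with the same SE.

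Inhbb read 4.52, 4.04 and 4.30 log2 in double mutants, 4.60, 4.19 and 4.75 in Ring1 mutants, 4.76, 5.20 and 5.64 in Rnf2 mutants and 4.75, 4.55 and 4.09 in controls. The 3 Rnf2-mutant arrays were the highest, with replicate 1 barely above control replicate 1. Inhbb differed from control by -0.18 ± 0.23 in the double mutant, 0.05 in the Ring1 mutant (limma, adjusted p = 0.966) and 0.74 in the Rnf2 mutant (limma, adjusted p = 0.487). In the double mutant, Inhba was lower than in the Rnf2 mutant by 1.30 ± 0.35 (limma, adjusted p = 0.0125), and Inhbb by 0.91 ± 0.23 (limma, adjusted p = 0.00844). The Inhba call was lost without double-mutant replicate 2 (adjusted p = 0.0561) and without Rnf2-mutant replicate 3 (adjusted p = 0.0549). Against the Ring1 mutant, the differences of the double mutant were -0.42 for Inhba (limma, adjusted p = 0.415) and -0.23 for Inhbb (limma, adjusted p = 0.501).

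Some granulosa cell genes had an order of arrays much like that of these subunits, and others did not. Inha, the alpha subunit that makes inhibin, read 6.83, 5.32 and 5.31 log2 in double mutants, 6.22, 5.38 and 6.06 in Ring1 mutants, 6.81, 7.40 and 7.40 in Rnf2 mutants and 7.01, 6.82 and 5.66 in controls. Cyp11a1, the enzyme that starts steroid synthesis, read 6.50, 4.36 and 4.07 in double mutants, 6.28, 4.65 and 5.28 in Ring1 mutants, 6.70, 7.73 and 7.73 in Rnf2 mutants and 7.34, 6.17 and 5.28 in controls. As with Inhba, replicate 1 was the highest array of the double mutant and of the control and the lowest of the Rnf2 mutant for both. In the Ring1 mutant the highest array was replicate 3 for Inhba and Inhbb and replicate 1 for Inha and Cyp11a1. Ptgs2, the cyclooxygenase of cumulus expansion, instead read 9.13, 9.03 and 9.07 in double mutants, 5.43, 5.23 and 5.28 in Ring1 mutants, 6.08, 6.29 and 5.82 in Rnf2 mutants and 5.19, 4.90 and 4.75 in controls, highest where Inhba was not.

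Of the 19 granulosa and cumulus markers, all measured, 12 had a mean above the floor. The list mean read 5.20, 4.73 and 4.76 log2 in double mutants, 4.95, 4.58 and 4.83 in Ring1 mutants, 5.08, 5.30 and 5.33 in Rnf2 mutants and 5.13, 4.94 and 4.77 in controls. Their summed linear intensity ranged from 1945 to 2289 in double mutants, 1341 to 1534 in Ring1 mutants, 1669 to 2068 in Rnf2 mutants and 1404 to 1809 in controls. A linear sum is weighted to bright genes, and it includes Ptgs2, which averaged 9.08 log2 in double mutants and 4.95 in controls. The sum thus does not rank genotypes by granulosa cell RNA. The granulosa receptor gene Fshr was below the floor on all arrays (3.09 to 3.59 log2), and Foxl2, a granulosa identity factor, was near it (3.64 to 4.32 log2). In the double mutant against the Rnf2 mutant, where Inhba and Inhbb were called, limma called 3 of the 19 markers higher and 7 lower. Against control it called 3 higher (Ptgs2, Nr5a2 and Serpine2) and 2 lower, and with the replicate block 2 higher and 5 lower. The part of granulosa cell RNA in the Inhba and Inhbb values was not tested.

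**Figure D4:**
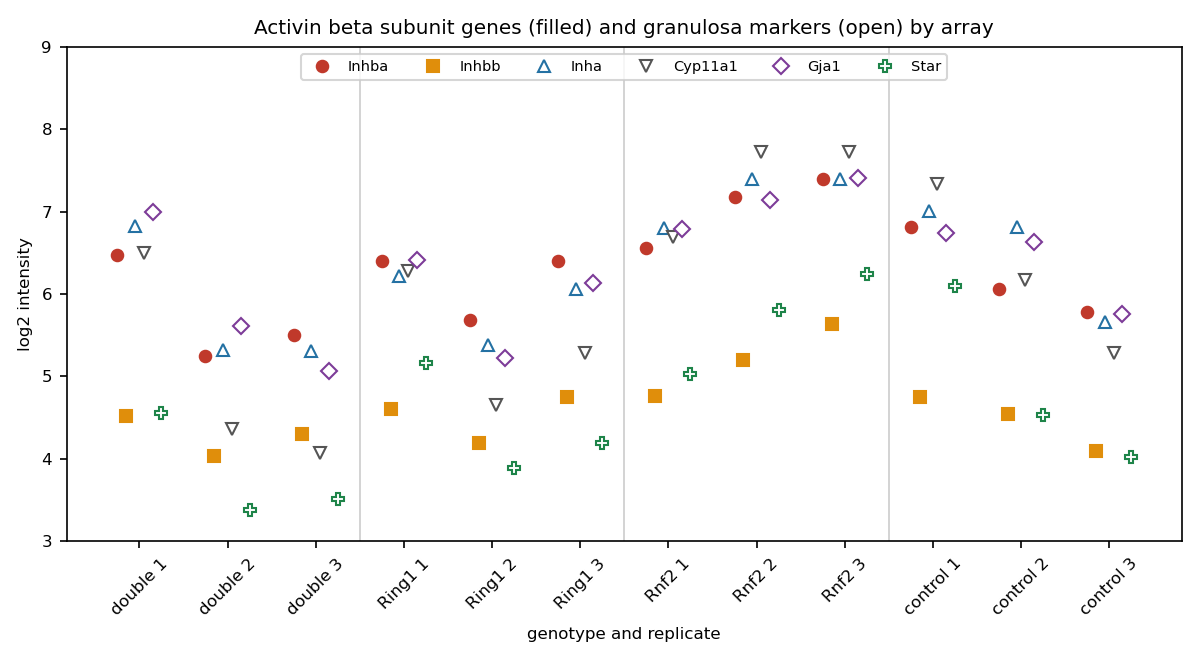
The y axis is log2 intensity and the x axis the 12 arrays by genotype and replicate (double, Ring1 and Rnf2 stand for the mutants). Filled symbols are Inhba and Inhbb, open symbols the granulosa genes Inha, Cyp11a1, Gja1 and Star, 1 symbol per gene and array. The open symbols were picked from 19 markers, and other markers had another order. Ptgs2 and Nr5a2, not shown, were highest in double mutants. Cyp19a1, not shown, averaged 7.06 in double mutants, 7.67 in Ring1 mutants, 7.79 in Rnf2 mutants and 7.83 in controls. The 3 Rnf2-mutant arrays hold Inhba at 6.56 to 7.40, and the double-mutant arrays at 5.24 to 6.48.

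Whether loss of Rnf2 acted differently with and without Ring1 was tested by the interaction, which is the double mutant minus the Ring1 mutant less the Rnf2 mutant minus control. Leaving aside Bmp2, limma called 3 of the other 9 ligand genes in the positive and 2 in the negative direction, where 19.0% of all genes were called (9.97% positive and 9.0% negative). The positive ones were Bmp4 (0.50 ± 0.12 log2, adjusted p = 0.0137), Bmp5 (0.46 ± 0.08, adjusted p = 0.00222) and Bmp7 (0.67 ± 0.21, adjusted p = 0.0441). The negative ones were Tgfb2 (-0.71 ± 0.10, adjusted p = 0.000273) and Bmp6 (-0.39 ± 0.11, adjusted p = 0.0251). Of 19 alternatives, the Bmp7 call was lost in 12, with adjusted p up to 0.108, and the Bmp6 call in 8, with adjusted p up to 0.0697. Inhba (-1.25 ± 0.49, limma, adjusted p = 0.106), Inhbb (-0.97 ± 0.32, limma, adjusted p = 0.0557), Gdf9 (-0.11 ± 0.08, limma, adjusted p = 0.373) and Bmp15 (-0.07 ± 0.07, limma, adjusted p = 0.587) were not called. For Bmp2 the interaction was 4.45 ± 0.12 log2, given without a test. With only the 12786 genes above the floor tested, limma called the interaction for 4294 genes.

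Against the single mutants, and again without Bmp2, limma called 3 of 9 ligand genes higher and 2 lower in the double mutant than in the Ring1 mutant, and 3 higher and 4 lower than in the Rnf2 mutant. Among all genes 31.6% were called against the Ring1 mutant (14.9% higher and 16.6% lower) and 30.2% against the Rnf2 mutant (13.9% higher and 16.3% lower). These shares include dim genes, while of the 9 ligand genes only Bmp4 had a mean below the floor. With only the 12786 genes above the floor tested, limma called 6429 against the Ring1 mutant and 6259 against the Rnf2 mutant. The arrays did not overlap for 7 of the 9 genes against the Ring1 mutant and for 8 of the 9 against the Rnf2 mutant, beside 43.2% and 42.0% of all genes.

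The other genes of the pathway come from 8 lists, which hold 99 genes that are no members. Of these, 98 were measured and 30 never exceeded the floor. In the double mutant against control, 23 were higher and 8 lower by limma, beside 14.4% and 17.5% of all genes in these directions, and the median difference was -0.00042 log2 beside -0.04 for all genes. The split depends on scaling, with 18 higher and 26 lower after centring on array medians and 31 higher and 5 lower after centring on the most abundant genes. With the replicate block in a fit of these 2 genotypes, 20 were higher and 8 lower. In the Ring1 mutant limma called 0 of the 98 (8 at an unadjusted p below 0.05), and in the Rnf2 mutant 1, the BMP antagonist Chrdl1 (12 at an unadjusted p below 0.05).

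Of the 22 other ligands measured, 6 had a mean above the floor and 2 were called in the double mutant, with a list median of -0.09 log2. Gdf11, which patterns the axial skeleton, was higher by 1.05 ± 0.10 (limma, adjusted p = 6.52e-06), and Tgfb3 was lower by 0.62 ± 0.07 (limma, adjusted p = 3.44e-05), close to the difference of Tgfb2. Gdf11 read 5.63, 6.02 and 5.99 log2 in double mutants and 4.81, 4.85 and 4.84 in controls. After centring on array medians, 9 of the 22 were called lower.

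Of the 12 type I and type II receptors, 5 were higher and 1 lower, with a median of 0.15 log2. Acvr1, a type I receptor that binds BMPs and activins, read 7.65, 7.66 and 7.58 log2 in double mutants, 5.94, 5.90 and 5.98 in Ring1 mutants, 5.99, 5.85 and 5.78 in Rnf2 mutants and 6.01, 6.15 and 5.99 in controls. Only the double-mutant arrays were high, and the difference from control was 1.58 ± 0.07 (limma, adjusted p = 6.86e-09). The TGF-beta type I receptor gene Tgfbr1 was higher by 0.68 ± 0.08 (limma, adjusted p = 5.18e-05) and the activin type II receptor gene Acvr2b by 0.73 ± 0.09 (limma, adjusted p = 6.27e-05). Bmpr1b, a BMP type I receptor needed for cumulus expansion in mouse, was lower by 0.51 ± 0.06 (limma, adjusted p = 2.47e-05). It read 7.98, 7.97 and 7.91 log2 in double mutants and 8.46, 8.52 and 8.41 in controls. Of the 7 co-receptors, the BMP co-receptor gene Rgma was called, higher by 0.56 ± 0.13 (limma, adjusted p = 0.00583).

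Of the 6 signal-transducing Smads, 2 were higher and 1 lower, and all 3 are of the BMP branch with the values as deposited. Quantile normalization gave 4 higher and 1 lower, and centring on the most abundant genes 4 higher and 0 lower. Under those scalings the calls were thus not limited to the BMP branch. Smad5 was higher by 0.99 ± 0.10 (limma, adjusted p = 9.32e-06) and Smad1 by 0.40 ± 0.08 (limma, adjusted p = 0.00228). Smad9 was lower by 0.36 ± 0.10 (limma, adjusted p = 0.0145), a call lost in 3 of 15 alternatives, among them leaving out control replicate 1 or 3. Smad5 read 6.97, 6.85 and 6.86 log2 in double mutants and 6.03, 5.95 and 5.73 in controls, without overlap. Of 9 intracellular inhibitors, Smad7, which blocks type I receptors and is itself induced by the pathway, was higher by 0.85 ± 0.08 (limma, adjusted p = 3.45e-06). Bambi, a pseudoreceptor, was higher by 0.49 ± 0.16 (limma, adjusted p = 0.0385) and the ubiquitin ligase gene Smurf2 lower by 0.19 ± 0.07 (limma, adjusted p = 0.0414). Those calls held in 8 and 5 of 15 alternatives, in that order. Smurf2 was not called with the replicate block in a fit of the double mutant and control only (limma, adjusted p = 0.131).

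Of 17 secreted antagonists, 2 were higher and 2 lower. Chrdl1, which binds BMPs outside the cell, read 7.74, 7.79 and 7.81 log2 in double mutants, 4.56, 4.81 and 4.79 in Ring1 mutants, 5.03, 5.18 and 5.41 in Rnf2 mutants and 4.45, 4.51 and 4.43 in controls. The double-mutant arrays stood far above the others and the Rnf2-mutant arrays above those of the Ring1 mutant and control. The difference from control was 3.32 ± 0.09 in the double mutant (limma, adjusted p = 2.89e-10), 0.26 in the Ring1 mutant (limma, adjusted p = 0.341) and 0.74 ± 0.09 in the Rnf2 mutant (limma, adjusted p = 0.00846). The call in the Rnf2 mutant was lost in 3 of 14 alternatives (only the groups compared, without control replicate 1, and without Rnf2-mutant replicate 2), with adjusted p up to 0.0862. The interaction was 2.32 ± 0.13 (limma, adjusted p = 2.48e-07). Vwc2, a further BMP antagonist, was higher in double mutants by 0.27 ± 0.07 (limma, adjusted p = 0.0103), a call lost after centring on array medians (adjusted p = 0.131). Dand5, an antagonist of Nodal, was lower by 0.41 ± 0.10 (limma, adjusted p = 0.00837), and the BMP-binding Twsg1 by 0.38 ± 0.10 (limma, adjusted p = 0.0141). The Twsg1 call was lost after centring on the most abundant genes and without control replicate 1 or double-mutant replicate 3, with adjusted p up to 0.0649.

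Of 14 genes for ligand processing and latency, 5 were higher and 2 lower. Ltbp1, which tethers latent TGF-beta to the matrix, read 6.41, 6.51 and 6.22 log2 in double mutants, 4.32, 4.15 and 4.23 in Ring1 mutants, 4.65, 4.74 and 4.69 in Rnf2 mutants and 4.59, 4.37 and 4.37 in controls. The double-mutant arrays did not overlap with any others, and Ltbp1 was higher than control by 1.94 ± 0.09 (limma, adjusted p = 8.41e-09). The proprotein convertase gene Pcsk6 was higher by 1.66 ± 0.10 (limma, adjusted p = 6.94e-08) and Furin, another convertase, was lower by 0.37 ± 0.06 (limma, adjusted p = 0.000424). The microfibril gene Fbn2 was higher by 0.95 ± 0.13 (limma, adjusted p = 0.000101).

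Of 11 genes listed as transcriptional targets of BMP signalling, 5 were higher and 0 lower in the double mutant, with a median of 0.15 log2. Id3, an inhibitor of basic helix-loop-helix factors, read 5.84, 5.28 and 5.22 log2 in double mutants, 4.07, 4.08 and 4.54 in Ring1 mutants, 4.50, 4.72 and 4.56 in Rnf2 mutants and 4.67, 4.47 and 4.44 in controls. The double-mutant arrays lay above all others with replicate 1 the highest, and the difference from control was 0.92 ± 0.16 (limma, adjusted p = 0.000823). Id1 was higher by 0.42 ± 0.09 (limma, adjusted p = 0.0029) and the Notch and BMP target Hey1 by 0.51 ± 0.07 (limma, adjusted p = 0.000124). The homeobox gene Msx2 was higher by 0.46 ± 0.11 (limma, adjusted p = 0.00727) but averaged 3.36 log2 in double mutants and 2.89 in controls, below the floor in both. Msx2 was called in 13 of 14 alternatives. It was lost with the replicate block in a fit of the double mutant and control only (limma, adjusted p = 0.0617). After centring on array medians, 4 of the 11 were higher and 2 lower.

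**Figure D5:**
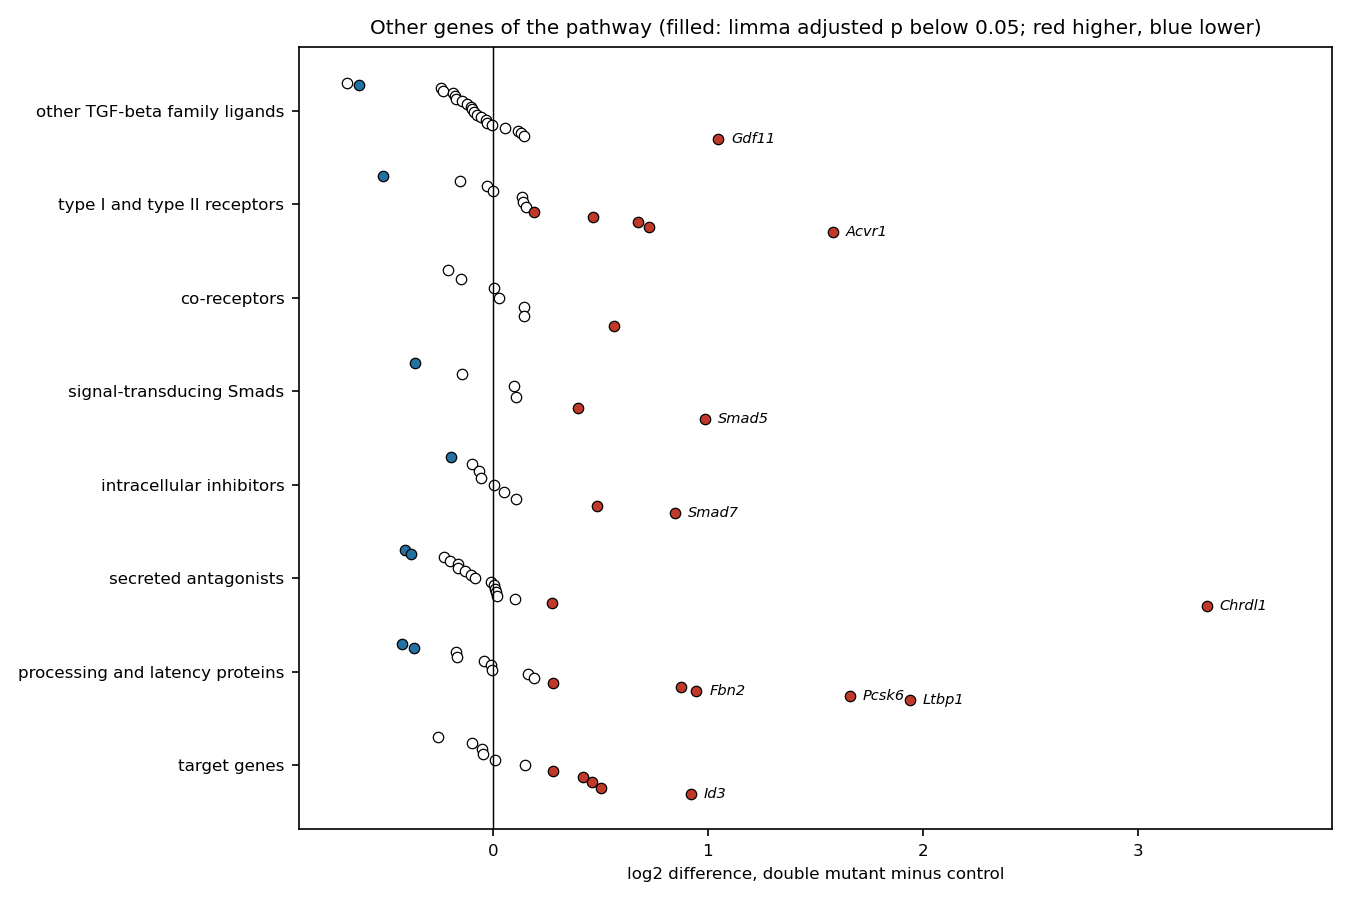
The x axis is the log2 difference between double mutant and control, and each row is 1 of the 8 pathway lists. Points are genes, filled where limma called them at an adjusted p below 0.05. Most points lie near 0, with Chrdl1 (3.32), Ltbp1 (1.94), Pcsk6 (1.66) and Acvr1 (1.58) farthest to the right.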

How the data were processed

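The authors deposited 1 table of log2 intensities, 1 value per probe set and array, with array medians of 3.81 to 3.93 that show some earlier normalization. R 2.10.0 and affy are named by the submitters' processing notes, which as used here do not state the background correction, the summarization or the array's genome build. The RNA was amplified as cDNA before hybridisation, per the labels' protocols, which can compress differences, and the number of arrays limits precision.

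The authors' annotation gave 1 gene for 23583 of 34760 probe sets, several for 1029 and none for 10117, and lacked 31. Only probe sets with 1 gene were used. Their symbols were updated through RefSeq (GRCm38.p6): gene numbers placed 20217, accessions 183, current symbols 911 and older symbols 679, and 1593 kept the given name. The probe set with the highest mean stood for each of 1091 genes with several.

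One limma 3.58.1 model (R 4.3.3, lmFit and eBayes) with 1 mean for each genotype covered all 12 arrays and 21746 genes, with p-values adjusted by Benjamini-Hochberg within each of 6 comparisons. It was tested on simulated data. Calls needed an adjusted p below 0.05. Members and lists were chosen with earlier results of these data known. The text names all members, up to 4 called genes per pathway list (smallest adjusted p in the double mutant against control), any called in a single mutant against control, the 5 genes most like Bmp2 (of which 1 is not reported here), and markers beside Inhba and Inhbb. Gdf1, which shares its probe set with another gene, was not used. Alternatives were the mean of probe sets, only genes above the floor, 3 scalings, only the groups compared, a variance trend with robust estimation, a replicate block, and leaving out each array. Replicate numbers were taken to pair genotypes where the deviations of all 3 same-numbered pairs of arrays correlated over 0.1 across genes. This held for the double mutant and control (0.10 to 0.26, against -0.16 to 0.0015 for other pairs) and for no other 2 genotypes. Deviations within a genotype cancel, so low values for the other pairs follow from the high ones. Across all genotypes, differently numbered pairs reached 0.20, and the sample titles give replicate numbers without stating a pairing.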

Additional observations from a re-analysis of the deposited data

Results flagged for a closer look

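For 5 ligand genes the difference made by loss of Rnf2 was not the same with and without Ring1 by the test of the interaction on the values as deposited. It was 0.67 for Bmp7, 0.50 for Bmp4, 0.46 for Bmp5, -0.39 for Bmp6 and -0.71 for Tgfb2, each past an adjusted p of 0.05 by limma. For Bmp2 it was 4.45 log2, a description with no test because Bmp2 was chosen for its rise in the double mutant. Of 19 alternatives, the interaction call of Bmp7 was lost in 12 and that of Bmp6 in 8. Bmp4 lay below the floor on all arrays. With 3 arrays per genotype, single arrays were not tested for standing apart.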

How the results depend on the processing

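The 10 members' differences were recomputed under each alternative in all 6 comparisons, giving 894 values. Of these, 845 kept their side of the threshold, 26 lost a call, 23 gained one and 0 turned direction while called. Among the 845 were 33 that changed sign while called under neither setting. The number of genes called in the Ring1 mutant against control was 168, and it was 47 with only the groups compared, 304 with a variance trend and robust estimation, and 73 to 121 when an array was left out. In the Rnf2 mutant against control it was 30, and it was 6, 63 and 10 to 28 under the same alternatives. Fewer arrays enter the first and last of these, and the cause of the others was not tested. Leaving out an array gave 6 to 8 ligand genes called in the double mutant against the Rnf2 mutant (8 with all arrays) and 4 to 7 in the interaction (6 with all arrays), Bmp2 included. In the double mutant against control, centring on array medians, and likewise the variance trend, added Gdf9 and Bmp15 to the genes called lower, and the filter on dim genes added Gdf9 and left out Bmp4. With the replicate block and all arrays, 6787 genes were called in the double mutant and 18 in the Rnf2 mutant, both against control. With the block and only the arrays of the double mutant and control, taken as paired by replicate number, 6126 genes were called. That last fit, chosen after seeing the data, added Inhba and changed no other call among the ligand genes. Calls of members in this comparison are not read as a result. Among the pathway genes it also lost Bmpr2 (adjusted p = 0.1) and Tll1 (adjusted p = 0.0619). Bmp2 in 3 genotypes and Bmp4 in all lay below the floor, so signal over background limits what their values can show.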
